A study of Mus musculus with 847 samples.

Results

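The 9 striatal projection neuron genes described here are Drd1, Pdyn, Tac1, Drd2, Adora2a, Penk, Ppp1r1b, Rgs9 and Pde10a. They were chosen by name from 21076 genes in a table of read counts, and all 9 were found. The study sequenced RNA from 15 dissected brain regions of 59 C57BL/6JN mice, 25 females and 34 males, at 7 ages, in 847 libraries with at most 1 library for each mouse and region. Both sexes were sampled at 3, 12, 15, 18 and 21 months, and males alone at 26 and 28 months. The labels name no transgene, deletion or treatment in any group. In caudate putamen, the dorsal striatum of rodents, there were 58 libraries, with 9, 10, 10, 10, 11, 5 and 3 mice from the youngest age to the oldest. The subventricular zone, the strip of tissue along the lateral ventricle beside the striatum, gave 55 libraries, and the corpus callosum, the white matter above it, gave 57. The mice are the replicates, since each value of a region comes from a separate animal.

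Most neurons of the striatum are GABA-releasing spiny projection neurons of 2 kinds. Neurons of the direct pathway project to the substantia nigra and carry the dopamine receptor Drd1 with the peptide precursors Pdyn, which yields dynorphins, and Tac1, which yields substance P. Neurons of the indirect pathway project to the globus pallidus and carry the dopamine receptor Drd2, the adenosine receptor Adora2a and the enkephalin precursor Penk. Both kinds use Ppp1r1b (DARPP-32), a substrate of protein kinase A that inhibits protein phosphatase 1, Rgs9, which speeds the shut-off of inhibitory G proteins, and Pde10a, which degrades cAMP and cGMP. Drd1 raises cAMP and Drd2 lowers it. Expression of the peptide genes depends on dopamine and cAMP signalling.

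The genes lie on 8 chromosomes of the GRCm38.p6 build (RefSeq coordinates, with the strand from GENCODE). The direct pathway genes are Drd1 at chromosome 13, 54051183 to 54055658 on the minus strand, Pdyn at chromosome 2, 129686549 to 129699938 on the minus strand, and Tac1 at chromosome 6, 7555061 to 7562978 on the plus strand. The indirect pathway genes are Drd2 at chromosome 9, 49340360 to 49408177 on the plus strand, Adora2a at chromosome 10, 75316877 to 75334792 on the plus strand, and Penk at chromosome 4, 4133536 to 4138815 on the minus strand. Of the genes that both kinds of neuron use, Ppp1r1b is at chromosome 11, 98348406 to 98357796 on the plus strand, Rgs9 at chromosome 11, 109225348 to 109298181 on the minus strand, and Pde10a at chromosome 17, 8525187 to 8986648 on the plus strand. RefSeq promoter windows of the same build, from 250 bases before to 50 after a start, matched 6 of the 9 genes. The stretch of 250 bases before the first listed start is shown for the 3 direct pathway genes, because the peptide genes among them had the highest age slopes in caudate putamen. They are written 5′ to 3′ on the gene's strand, and capitals mark the core of the cAMP response element, searched as TGACG and, for the other strand, as its reverse complement.
Tac1, chr6:7554811-7555060, plus strand: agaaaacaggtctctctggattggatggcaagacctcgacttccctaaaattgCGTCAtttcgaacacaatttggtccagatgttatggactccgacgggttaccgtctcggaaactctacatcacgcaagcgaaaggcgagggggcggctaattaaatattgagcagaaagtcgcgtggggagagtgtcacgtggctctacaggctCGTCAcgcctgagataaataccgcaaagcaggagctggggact
Pdyn, chr2:129699939-129700188, minus strand: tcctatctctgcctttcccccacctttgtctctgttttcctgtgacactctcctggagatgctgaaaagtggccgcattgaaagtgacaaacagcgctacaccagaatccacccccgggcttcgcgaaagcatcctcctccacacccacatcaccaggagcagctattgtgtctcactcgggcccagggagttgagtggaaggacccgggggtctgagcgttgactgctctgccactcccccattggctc
Drd1, chr13:54055659-54055908, minus strand: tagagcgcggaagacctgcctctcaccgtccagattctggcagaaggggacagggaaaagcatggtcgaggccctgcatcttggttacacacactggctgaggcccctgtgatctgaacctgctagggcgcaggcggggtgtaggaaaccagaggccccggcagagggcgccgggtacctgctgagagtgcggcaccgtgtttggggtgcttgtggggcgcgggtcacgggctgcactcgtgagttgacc
Tac1 held 2 cores, which begin 197 and 43 bases before the start. The windows of Pdyn, Drd1, Drd2, Rgs9 and Pde10a held 0. The full element TGACGTCA, which contains the core, was in none of the windows of these 6 genes, and the TATA box, searched as TATAAA on both strands, was in 1, that of Rgs9. Of 32851 promoter windows of this length, 20.8% held the core, 1.79% the full element and 13.6% the TATA box letters. These matches describe letters in a window and not sites in use.

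Totals per library ran from 548010 to 15176523 reads in caudate putamen (median 5246130), from 481444 to 16380280 in subventricular zone (median 6107020) and from 1537845 to 19669697 in corpus callosum. Values are CPM, the read count of a gene divided by the library's total and multiplied by 1000000, unless another scale is named, and slopes are in log2 per month of age from edgeR's quasi-likelihood test beside sex, with p-values adjusted by Benjamini-Hochberg over all genes tested and a threshold of 0.05. Markers of other cell types were read in the 3 regions. The 6 oligodendrocyte genes summed to a median of 20982 CPM in corpus callosum, 12487 in caudate putamen and 10664 in subventricular zone. The 4 ependymal genes had medians of 205, 24.5 and 64.0 CPM in subventricular zone, caudate putamen and corpus callosum. The 4 cortical glutamatergic genes had medians of 317 CPM in corpus callosum, 34.8 in subventricular zone and 2.78 in caudate putamen. The choroid plexus genes reached 2984, 8406 and 17659 CPM in single libraries of caudate putamen, subventricular zone and corpus callosum. Of single libraries, those of mice 32 and 39 in subventricular zone had Adora2a at 5.65 and 5.91 CPM, against 25.7 to 341 in the other 53. The subventricular zone library of mouse 3, a male, had 116 CPM of Xist, a transcript of females, against at most 8.86 in other males there. Subventricular zone was also fitted without mouse 3, and without the libraries lowest in a list of other projection neuron genes described below. These fits called 0 of the 9 genes with age. Fits without libraries under 1000000 reads called 0 of the 9 in either region, as did the fits on all libraries.

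All 9 genes had their highest mean in caudate putamen, and for 8 of them corpus callosum came second and subventricular zone came next. Penk was at 3512 ± 549 CPM in caudate putamen (SD, n = 58), 1691 ± 533 in corpus callosum (n = 57) and 1064 ± 595 in subventricular zone (n = 55), and the next region, olfactory bulb, had 344 ± 31.8 (n = 58). Adora2a was the most restricted of the indirect pathway genes, with 512 ± 72.3, 292 ± 82.6 and 124 ± 72.0 CPM in these 3 regions and 12.3 ± 2.54 in olfactory bulb. Drd2 had 544 ± 78.1, 341 ± 96.0 and 183 ± 76.1 CPM, followed by pons with 67.8 ± 51.8, where single libraries ran from 6.63 to 203. Drd2 is also made by dopamine neurons of the midbrain.

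Drd1 was at 123 ± 19.8 CPM in caudate putamen and 104 ± 29.2 in corpus callosum, ranges that overlap within 1 SD, and at 37.1 ± 20.6 in subventricular zone. No other region had a mean above the 7.21 ± 3.82 of entorhinal cortex, and 34 of 58 cerebellum libraries had no Drd1 read. Tac1 had 541 ± 79.7, 328 ± 90.2 and 181 ± 107 CPM in the same order, followed by hypothalamus with 128 ± 41.1. Pdyn departed from the order, with 144 ± 37.6 CPM in caudate putamen, 103 ± 47.8 in hypothalamus, 94.6 ± 28.4 in corpus callosum and 92.1 ± 45.3 in subventricular zone, and neighbours in that order overlapped within 1 SD. Both hippocampus and visual cortex also held Pdyn, at 36.0 ± 6.98 CPM in anterior hippocampus and 34.5 ± 4.03 in visual cortex.

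The 3 genes of both pathways followed the same order. Ppp1r1b was at 2451 ± 287, 1521 ± 382 and 700 ± 370 CPM in caudate putamen, corpus callosum and subventricular zone, and at 219 ± 18.5 in cerebellum. Rgs9 was at 675 ± 86.0, 463 ± 123 and 191 ± 107 CPM, with hypothalamus next at 43.8 ± 9.69. Pde10a was at 785 ± 105, 588 ± 160 and 228 ± 117 CPM. Its next 8 regions, from cerebellum at 51.2 ± 11.0 to olfactory bulb at 39.9 ± 10.0, overlapped from one to the next within 1 SD. These levels are a description, since the genes are known as striatal genes. Corpus callosum libraries held from 48.2% (Penk) to 84.1% (Drd1) of the caudate putamen mean. The labels do not say how much of the neighbouring striatum each dissected piece held, and its part in these levels was not tested.

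**Figure D1:**
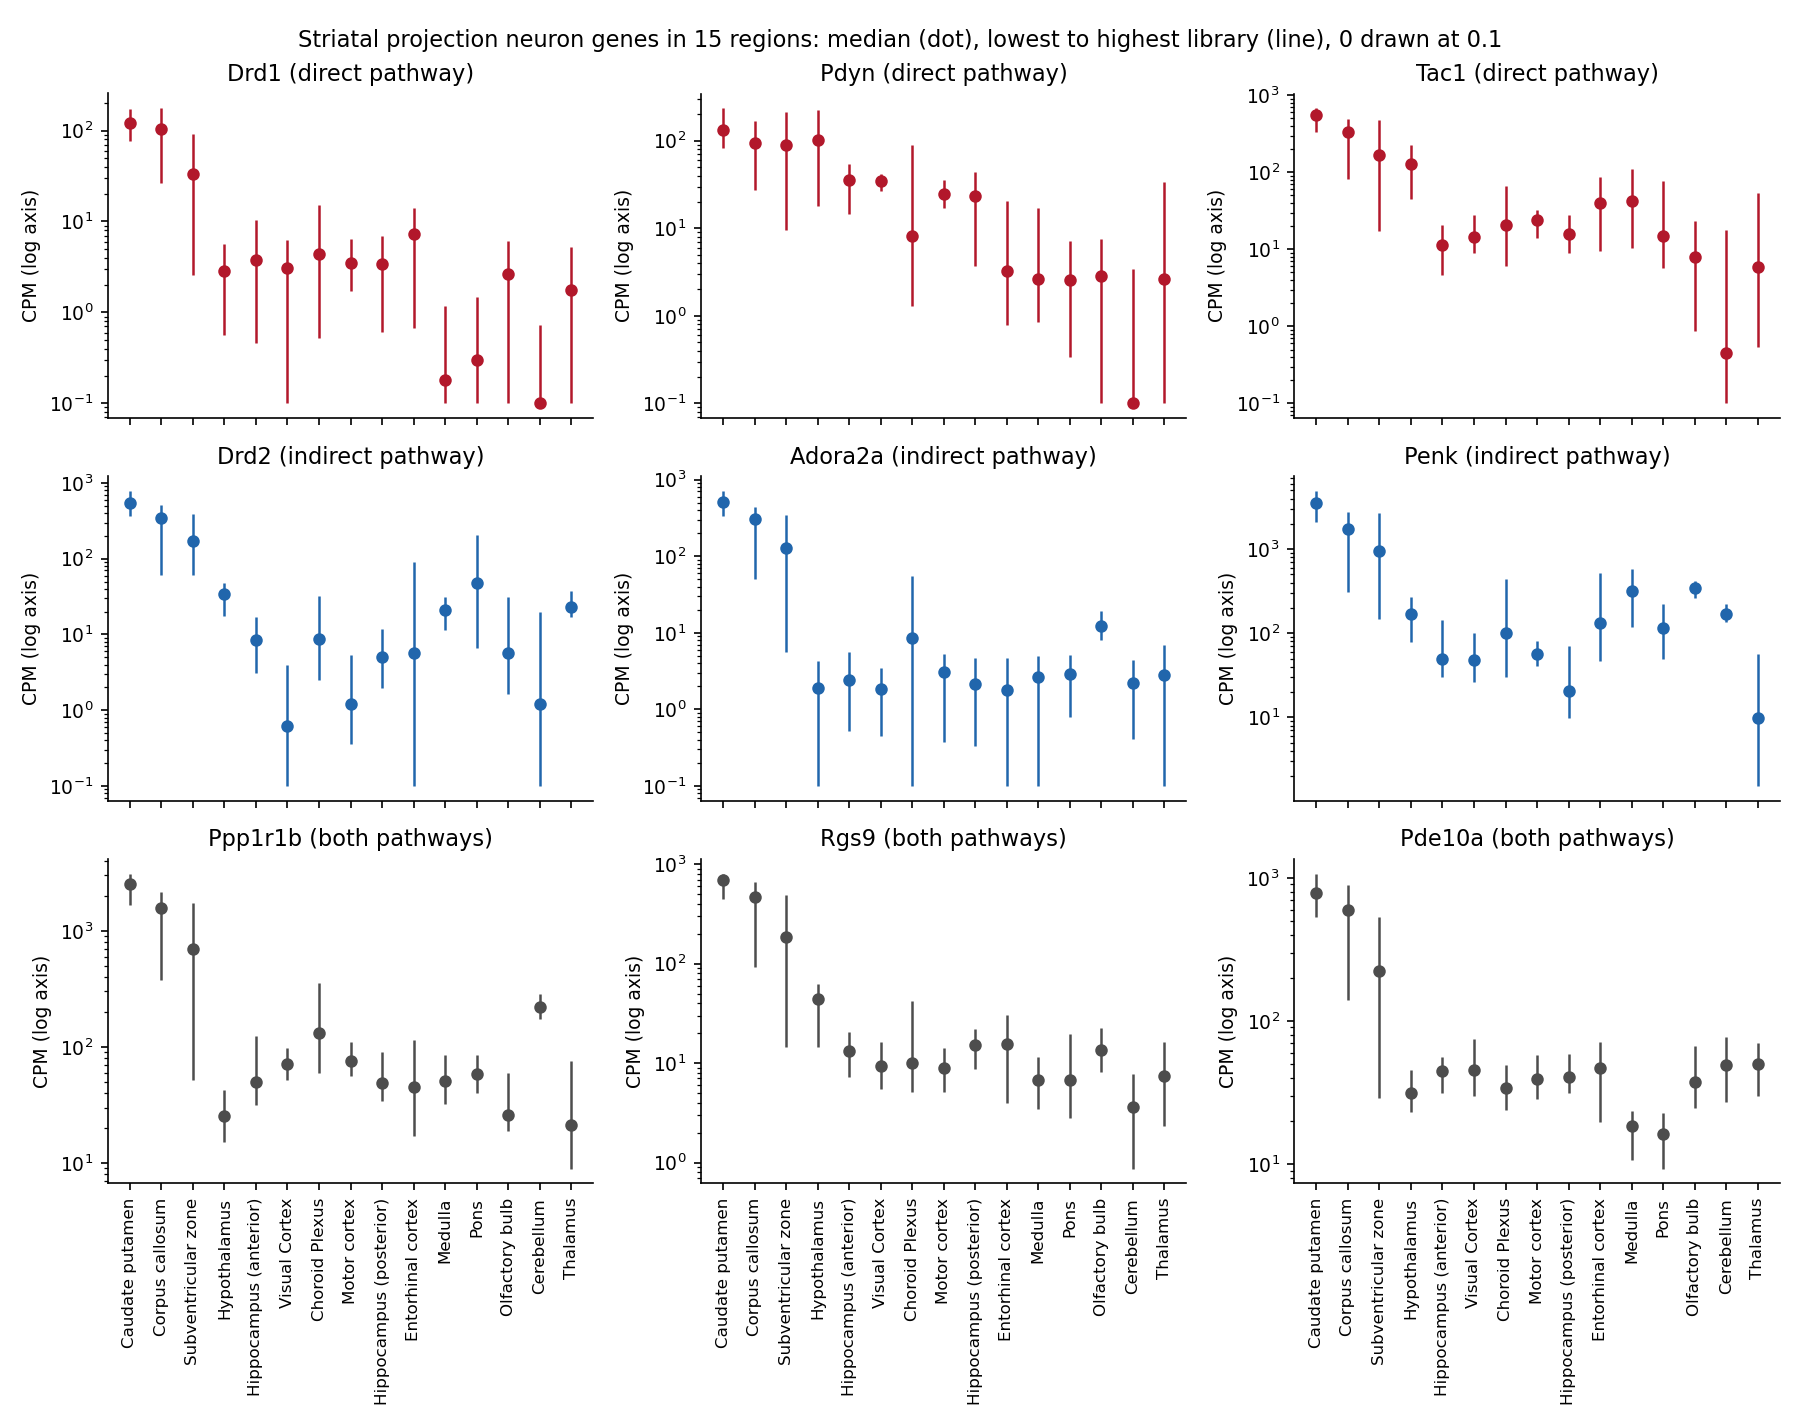
Level of each of the 9 genes (CPM, log axis) in 15 brain regions, with the median as a dot and a line from the lowest to the highest library, and 0 drawn at 0.1. Caudate putamen has the highest mean for 9 of 9 genes, and only Pdyn has hypothalamus (103 CPM) above corpus callosum (94.6 CPM).

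Levels of different genes can be compared only per length. On the scale of CPM per kilobase of merged exons, Penk was the most abundant in caudate putamen, at 2424 ± 379 (SD, n = 58), followed by Ppp1r1b at 952 ± 111 and Tac1 at 440 ± 64.8. Drd2 at 214 ± 30.7 and Adora2a at 197 ± 27.8 stood close together, as did Rgs9 at 111 ± 14.1 and Pde10a at 86.5 ± 12. Pdyn had 60.2 ± 15.8 and Drd1, the receptor of the direct pathway, had 34.5 ± 5.53, the lowest of the 9. The transcript of Drd2 was thus higher per kilobase than that of Drd1 in the mean, and the other indirect pathway receptor, Adora2a, stood beside it. These values rest on the annotated exons and not on the isoforms in use.

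Between caudate putamen and subventricular zone, 9 of 9 genes were higher in caudate putamen by edgeR's quasi-likelihood test, where 40.3% of 14697 genes were, and 80.8% were called in either direction. The difference was smallest for Pdyn, at 0.75 ± 0.11 (log2, SE) with a 95% interval from 0.53 to 0.97, and largest for Adora2a, at 2.19 ± 0.13 with an interval from 1.94 to 2.44. The median over the 9 genes was 1.87, against -0.0017 over all genes tested. The 9 genes were chosen by name as known striatal genes, so the direction of these differences is a description and no independent support. This fit did not pair the libraries of a mouse. In 54 mice both regions were sequenced. Within the same mouse, 8 genes were higher in caudate putamen in 54 of 54 mice, with median ratios of CPM from 3.11 for Drd2 to 4.04 for Adora2a, while Pdyn was higher in 46 of 54, with a median ratio of 1.51. In bulk tissue, fewer projection neurons in a piece and less RNA of these genes per neuron cannot be told apart.

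Spread between mice differed by region. In caudate putamen the coefficient of variation over 58 libraries ran from 11.7% for Ppp1r1b to 26.2% for Pdyn, and single genes differed by 1.79-fold (Rgs9) to 2.82-fold (Pdyn) between the lowest and the highest library. In subventricular zone it ran from 41.5% for Drd2 to 58.9% for Tac1, and Adora2a differed 60.3-fold between its lowest and highest library. A list of 14 other genes of projection neurons, none of them among the 9, stood in for each library's content of projection neuron RNA. That content was not measured in another way. The list includes the transcription factors Bcl11b, Foxp1, Foxp2, Rarb and Meis2, the phosphatase Ptpn5 and the sodium channel subunit Scn4b. Its mean log2 CPM ran from 8.21 to 8.99 in caudate putamen, from 6.72 to 8.69 in corpus callosum and from 5.91 to 8.37 in subventricular zone. The genes moved with it from library to library. Pearson's r with the list mean lay between 0.925 and 0.978 over the 55 subventricular zone libraries, between 0.779 (Pdyn) and 0.987 (Pde10a) over the 57 of corpus callosum, and between 0.360 (Pdyn) and 0.920 (Rgs9) over the 58 of caudate putamen. The points of such a correlation share a library, its depth and its scaling.

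**Figure D2:**
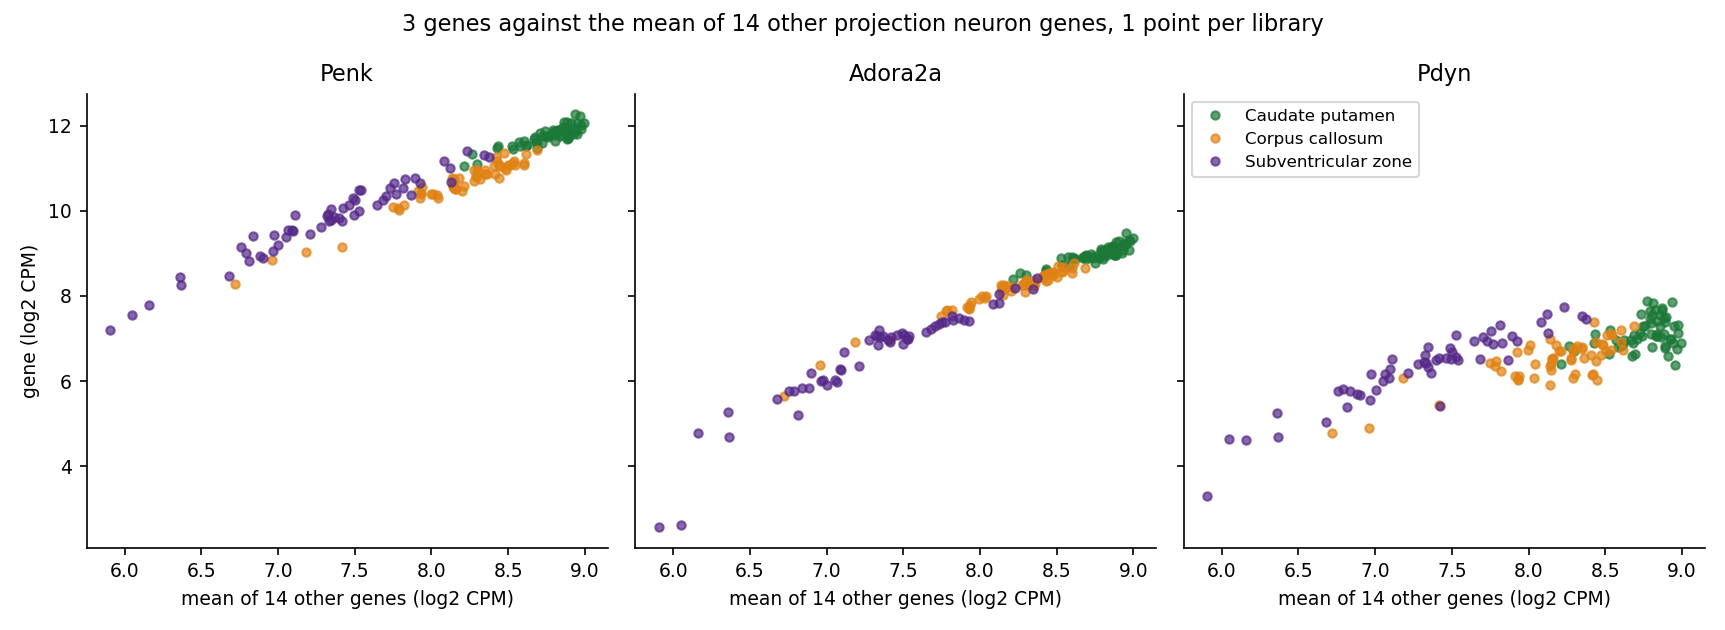
Log2 CPM of Penk, Adora2a and Pdyn (vertical axes) against the mean log2 CPM of 14 other projection neuron genes (horizontal axes), 1 point per library, coloured by region. Penk and Adora2a rise with the list mean through all 3 regions, while Pdyn in caudate putamen is scattered (r = 0.360 over 58 libraries).

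Subtracting the list mean narrowed the spread of some genes more than of others. In caudate putamen the SD of Drd2 on the log2 scale was 0.21 before and 0.095 after, and that of Ppp1r1b 0.18 and 0.076, while that of Pdyn was 0.37 and 0.34. In subventricular zone the SD of Drd2 went from 0.61 to 0.14, but that of Adora2a from 1.15 to 0.65. The list mean itself had an SD of 0.56 there, near that of Drd2 and below that of Adora2a. Subtraction thus leaves spread in Adora2a even where it moves with the list mean. The 0.65 therefore does not measure variation apart from the list. Among the 36 pairs of the 9 genes in caudate putamen, with age and sex taken out, Pearson's r had a median of 0.795. The highest was 0.946, between Adora2a and Ppp1r1b, and the lowest was 0.0053, between Pdyn and Drd2. Beyond the 9 genes, those most like Drd1 in caudate putamen were Neto1 (r = 0.880), Lmo3 (0.876) and Gas7 (0.875), and those most like Drd2 were Rasd2 (0.960), Plcb1 (0.939) and Rasl10b (0.939). Over the 15 region means, the genes most like the mean pattern of the 9 were Olfr1393 (r = 0.97), Adcy5 (0.969), Ido1 (0.966), Lhx8 (0.963) and AC128672.1 (0.958). Adcy5 is the main adenylyl cyclase of the striatum, and its mean in caudate putamen was 713 CPM, against 10.4 to 14.7 for the other 4.

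With age, none of the 9 genes passed the test in caudate putamen, where 13.4% of 13758 genes did. Tac1 and Pdyn, both peptide genes of the direct pathway, had the highest slopes and Penk, the peptide gene of the indirect pathway, the lowest. By edgeR's quasi-likelihood test, 2 of the 9, Tac1 and Penk, had an unadjusted p under 0.05, and DESeq2 gave the same counts of 0 and 2. Slopes were positive for 3 genes and negative for 6, with a median of -0.0018 log2 per month, against -0.00018 over all genes tested.

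Penk ran from 2938 to 4932 CPM at 3 months, with a median of 4294 (n = 9), and from 3066 to 3800 at 21 months, with a median of 3509 (n = 11). At 26 months the 5 males had 2586, 2831, 3007, 3066 and 3474 CPM, and at 28 months the 3 males had 2797, 3128 and 3437. The highest 3-month libraries lay above all later ones, but the lower end of that group overlapped every later age. The slope of Penk was -0.0088 ± 0.0038 (SE), with a 95% interval from -0.016 to -0.0013 and an adjusted p of 0.11.

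Tac1 ran from 372 to 532 CPM at 3 months, with a median of 496, and from 500 to 679 at 21 months, with a median of 569. At 26 months the males had 391, 469, 485, 603 and 620 CPM, and at 28 months 482, 538 and 579. Of the later groups, that of 21 months lay above the 3-month median in every library, and the older males returned to the 3-month range in part. The slope of Tac1 was 0.0094 ± 0.0042, with an interval from 0.00093 to 0.018 and an adjusted p of 0.14. Pdyn had medians of 119 CPM at 3 months and 157 at 21 months, in groups that ran from 95.3 to 231 and from 111 to 203. Its slope of 0.012 ± 0.0066 had an adjusted p of 0.22.

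The receptors and signalling genes lay closer to 0. Drd1 had a slope of -0.0030 ± 0.0044 (adjusted p = 0.72), with medians of 118 CPM at 3 months and 108 at 28 months. Drd2 had a slope of -0.0018 ± 0.0041 (adjusted p = 0.84) and Adora2a one of -0.0071 ± 0.0040 (adjusted p = 0.25). Adora2a ran from 399 to 652 CPM at 3 months and from 422 to 484 at 28 months, so the oldest group lay within the youngest. Ppp1r1b at -0.0010 ± 0.0035, Rgs9 at 0.00031 ± 0.0038 and Pde10a at -0.0043 ± 0.0038 had adjusted p-values from 0.49 to 0.98. The 95% interval of Ppp1r1b, from -0.0080 to 0.0060, bounds its change in either direction, and the signs of Drd1, Drd2 and Ppp1r1b turned when only mice up to 21 months were fitted.

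**Figure D3:**
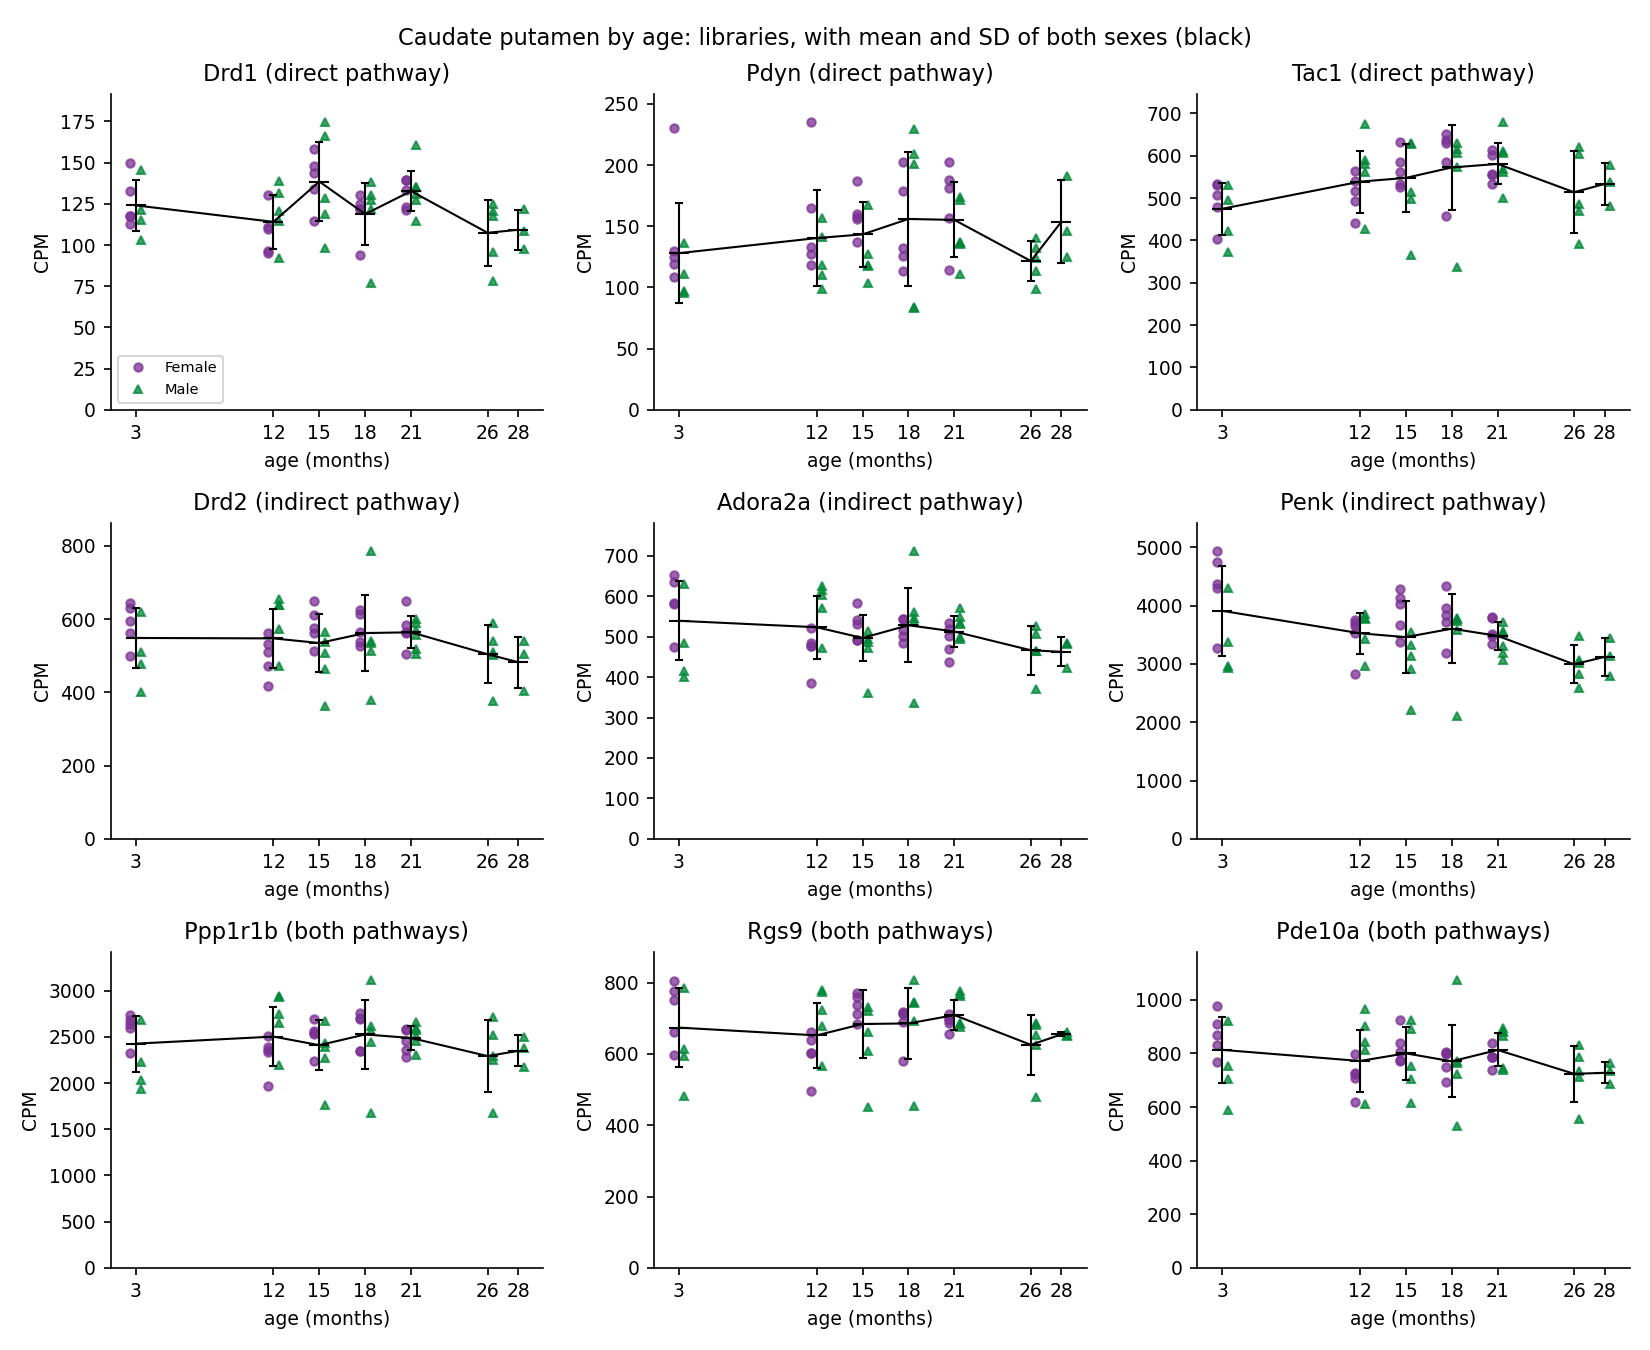
CPM of the 9 genes in caudate putamen by age in months, 1 point per library (circles, females; triangles, males), with the mean and SD of both sexes in black and axes from 0. Mean Tac1 is 475 CPM at 3 months and 580 at 21 months, mean Penk 3910 and 3481, and the groups overlap.

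Because the 9 genes moved with the mean of the 14-gene list, each slope was also fitted beside that mean. Pdyn followed it least in caudate putamen (r = 0.360). That list mean itself had a slope of -0.0021 ± 0.0033 log2 per month in caudate putamen. Beside it, 2 of the 9 genes passed, where 19.8% of all genes did. Tac1 rose at 0.012 ± 0.0019 log2 per month (95% interval 0.0081 to 0.016, adjusted p = 4.84e-06), and Penk fell at -0.0059 ± 0.0018 (interval -0.0095 to -0.0023, adjusted p = 0.013). Both calls held in each of the 58 fits that left out 1 mouse, with slopes from 0.011 to 0.013 for Tac1 and from -0.0067 to -0.0051 for Penk. In males alone Tac1 passed (0.0091, adjusted p = 0.0097) and Penk did not (-0.0041, adjusted p = 0.22). In mice numbered 16 to 56, which hold the ages of 3, 15, 18 and 21 months, both passed, at 0.014 and -0.0096. Pdyn was at 0.013 ± 0.0061 (adjusted p = 0.12).

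The 6 oligodendrocyte genes in caudate putamen summed to a median of 10535 CPM at 3 months and of 20922 in the 3 males of 28 months, with a range of 5267 to 27420 over all libraries, and 0 of the 6 passed the test with age (median slope 0.014). With its mean as the covariate in place of the projection neuron list, Tac1 (0.016, adjusted p = 2.87e-05) and Pdyn (0.020, adjusted p = 0.0037) rose and Penk had a slope of -0.0030 (adjusted p = 0.48), where 19.7% of all genes passed. Without any list, Tac1 passed in mice 16 to 56 (0.017, adjusted p = 0.036) and at ages 3 to 21 months (0.016, adjusted p = 0.038). The 4 choroid plexus genes there summed to medians of 1.63 CPM at 3 months and 1189 in the 3 males of 28 months, but 0 of the 4 passed and their median slope was -0.058. Their part in the slopes was not tested.

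Corpus callosum libraries, which come from the same mice, were examined in the same way after the caudate putamen values had been seen. Without the list, 0 of 9 genes passed, where 17.8% of 14432 genes did, 1 had an unadjusted p under 0.05, and slopes ran from -0.022 (Penk) to 0.0036 (Pdyn). Beside the 14-gene list, 4 of 9 passed, against 22.4% of all genes. Tac1 rose at 0.010 ± 0.0024 (adjusted p = 0.0014), Pdyn at 0.015 ± 0.0054 (adjusted p = 0.038) and Rgs9 at 0.0061 ± 0.0016 (adjusted p = 0.0037), and Penk fell at -0.0081 ± 0.0018 (adjusted p = 0.00079). For Tac1 and Rgs9 the sign turned from negative to positive once the list was in the fit. The list mean in corpus callosum had a slope of -0.011 ± 0.0072.

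In subventricular zone 0 of 9 genes passed, where 7.77% of 14701 did, and 0 had an unadjusted p under 0.05, while DESeq2 also called 0. All 9 slopes were negative, with a median of -0.016 log2 per month against -1.07e-05 over all genes. The 9 genes share these libraries and moved together there (r with the list mean from 0.925 to 0.978), so their signs are not independent. Penk had the lowest, at -0.026 ± 0.016 (adjusted p = 0.37), and Pdyn the least negative, at -0.0056 ± 0.015 (adjusted p = 0.91). At 3 months Penk ran from 351 to 1750 CPM, with a median of 1272 (n = 10), and at 28 months the 3 males had 354, 471 and 787. The oldest libraries thus lay inside the range of the youngest. Beside the 14-gene list, whose own slope there was -0.014 ± 0.011, 0 of 9 passed (3 with an unadjusted p under 0.05), against 9.54% of all genes, and 7 of the 9 slopes turned positive. Tac1 was then at 0.010 ± 0.0042 (adjusted p = 0.11) and Pdyn at 0.012 ± 0.0049 (adjusted p = 0.12).

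**Figure D4:**
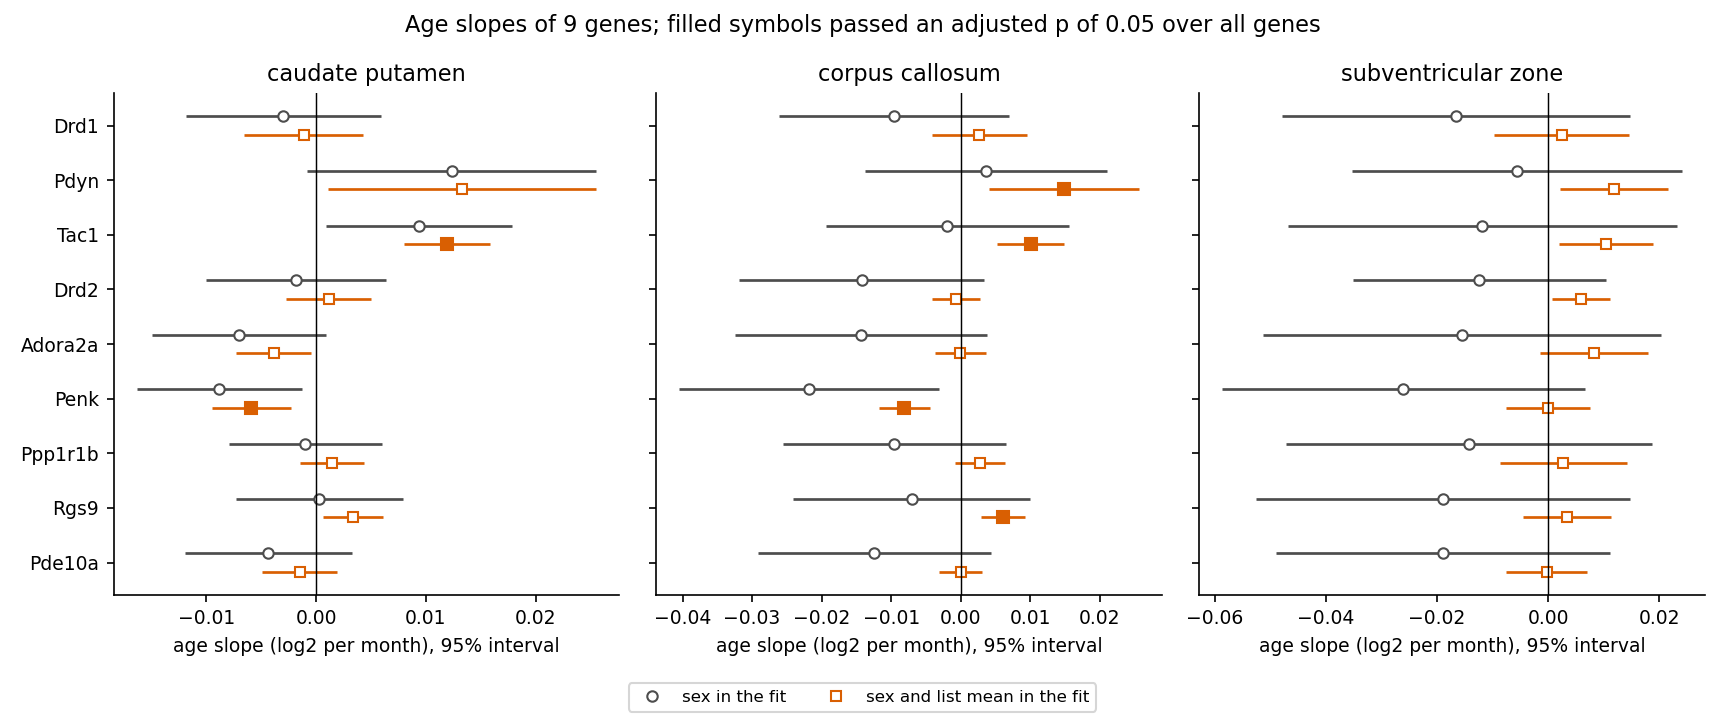
Age slopes (log2 per month, with 95% intervals) of the 9 genes in 3 regions, with sex in the fit (grey circles) and with sex and the mean of 14 other projection neuron genes (orange squares); filled symbols passed an adjusted p of 0.05 over all genes. Tac1 (0.012 and 0.010) and Penk (-0.0059 and -0.0081) are filled in caudate putamen and corpus callosum beside the list, and no symbol is filled in subventricular zone; the horizontal scales differ.

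No difference in slope between caudate putamen and subventricular zone passed the test for any of the 9 genes, with 0 called by the age by region term and 0 at an unadjusted p under 0.05, where 0.109% of 14697 genes were called. The difference, caudate putamen minus subventricular zone, ran from 0.0023 (Adora2a, 95% interval -0.032 to 0.037) to 0.016 (Tac1, -0.019 to 0.050). With the mouse as a block these differences ran from 0.00031 (Adora2a) to 0.014 (Pdyn), with 0 of 9 called and 46 genes called in all, against 16 without it. With the block the intervals ran from -0.035 to 0.036 for Adora2a and from -0.018 to 0.046 for Pdyn.

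The number of Tac1 reads for each Penk read puts a direct and an indirect pathway peptide gene of the same library side by side. It was chosen after the slopes were seen and is given with no test. In caudate putamen it was 0.123 ± 0.0146 at 3 months (SD, n = 9), with a range from 0.101 to 0.147. It was 0.153 ± 0.0173 at 12 months, 0.160 ± 0.0169 at 15, 0.159 ± 0.00913 at 18 and 0.167 ± 0.0144 at 21, where it ran from 0.152 to 0.205. The 5 males of 26 months had a mean of 0.172 ± 0.0278 and the 3 of 28 months values of 0.168, 0.172 and 0.172. Most of the rise lay between 3 and 12 months, and 41 of 49 later libraries lay above the highest at 3 months. At 3 months the median was 0.134 in 4 males and 0.118 in 5 females. Within females 20 of 20 later libraries lay above the highest of 3 months (0.123), and within males 28 of 29 lay above theirs (0.147).

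In corpus callosum the ratio was 0.160 ± 0.0172 at 3 months, 0.198 ± 0.0266 at 12 and 0.223 ± 0.0184 at 21, and the 3 males of 28 months had a mean of 0.230 ± 0.0121. There 35 of 47 later libraries lay above the highest at 3 months, with 19 of 19 in females and 25 of 28 in males by the limit of their own sex. In subventricular zone it was 0.149 ± 0.0180 at 3 months, 0.170 ± 0.0312 at 21 and 0.182 ± 0.00697 at 28, and 21 of 45 later libraries lay above the highest at 3 months, with 14 of 18 females and 13 of 27 males. As a slope of the log2 CPM of Tac1 minus that of Penk beside sex, the values were 0.018 ± 0.0026 per month in caudate putamen, 0.020 ± 0.0025 in corpus callosum and 0.0089 ± 0.0036 in subventricular zone. In caudate putamen the slope was 0.027 ± 0.0033 in females, whose ages end at 21 months, and 0.013 ± 0.0034 in males, whose ages run to 28. The libraries of these regions share their mice and are not independent of each other.

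**Figure D5:**
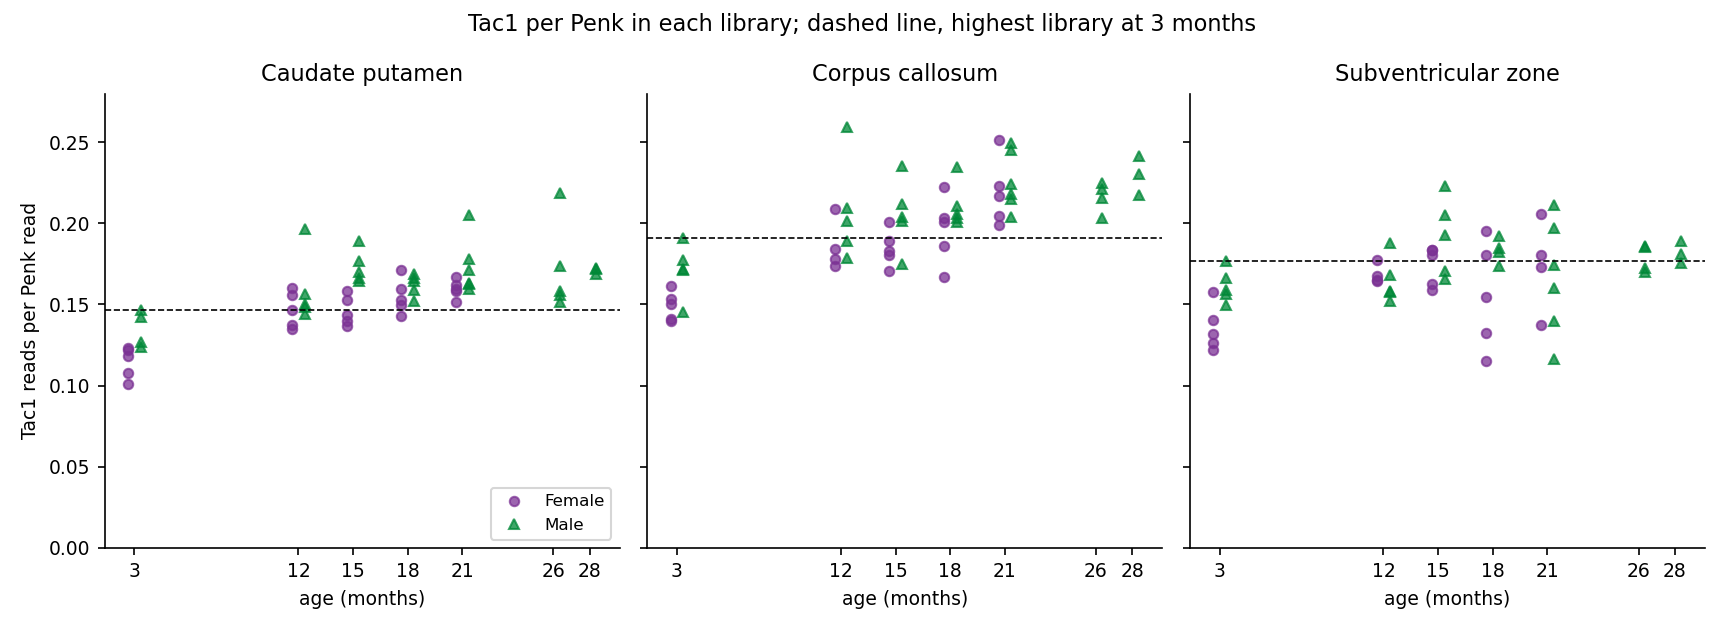
Tac1 reads per Penk read (vertical axis, from 0) by age in months in caudate putamen, corpus callosum and subventricular zone, 1 point per library, females as circles and males as triangles; the dashed line is the highest library at 3 months. In caudate putamen 41 of 49 later libraries are above the line, in corpus callosum 35 of 47 and in subventricular zone 21 of 45.

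A balance of the pathways was taken as the mean log2 CPM of Drd1, Pdyn and Tac1 minus that of Drd2, Adora2a and Penk. Its slope on age beside sex was 0.012 ± 0.0035 per month in caudate putamen (SE, n = 58), 0.015 ± 0.0030 in corpus callosum (n = 57) and 0.0041 ± 0.0037 in subventricular zone (n = 55), with no test. The receptors and the peptides were then taken apart. Drd1 minus the mean of Drd2 and Adora2a had a slope of 0.00084 ± 0.0040 in caudate putamen and 0.0053 ± 0.0044 in corpus callosum, and one of -0.0038 ± 0.0067 in subventricular zone. The mean of Pdyn and Tac1 minus Penk had slopes of 0.019 ± 0.0033, 0.024 ± 0.0032 and 0.012 ± 0.0034 in the same regions. In caudate putamen, Pdyn minus Penk gave 0.021 ± 0.0059 and Drd1 minus Drd2 gave -0.0015 ± 0.0041. The peptide difference sets the genes already seen to have the highest slopes in caudate putamen against the one with the lowest, so the sign of its slope there follows from that choice. The receptor difference had slopes of 0.0086 ± 0.0058 in females and -0.0033 ± 0.0053 in males of caudate putamen, and of 0.015 ± 0.0079 and 0.00032 ± 0.0052 in those of corpus callosum.

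Each later age was also set against 3 months, in 6 contrasts per region that share the 3-month libraries. None of the 9 genes was called in any of the 12 contrasts by edgeR's quasi-likelihood test or by DESeq2. In caudate putamen 0.218%, 0.574%, 2.26%, 4.38%, 2.8% and 9.43% of genes were called from the 12-month to the 28-month contrast, and at 15, 18, 21 and 26 months 1 of the 9 had an unadjusted p under 0.05. At 28 months Pdyn was at 0.38 (log2, 95% interval -0.079 to 0.85) and Penk at -0.23 (-0.51 to 0.054). In subventricular zone 1.42%, 0.102%, 0.578%, 1.97%, 3.06% and 2.13% of genes were called, and 0 of the 9 had an unadjusted p under 0.05 in edgeR. There all 9 genes had positive differences at 12 months, from 0.40 for Drd2 to 0.75 for Tac1, and all 9 negative ones at 28 months, from -1.15 for Penk (interval -2.31 to 0.0036) to -0.57 for Drd2. The oldest subventricular zone group holds 3 males, and the genes of 1 library move together there.

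Males and females were compared at the ages both have. At each of these ages except 12 months, all males had lower mouse numbers than all females. Sex and number order therefore cannot be told apart at those ages, and the sexes alternate in number only at 12 months. In caudate putamen 0 of the 9 genes passed, where 0.531% of 13564 genes did, and 2 had an unadjusted p under 0.05. Penk was at -0.18 ± 0.059 (log2 male minus female, adjusted p = 0.18), and at 0.046 in 12-month mice alone, with libraries from 2835 to 4932 CPM in 25 females and from 2113 to 4303 in 25 males. Pdyn was at -0.23 ± 0.10 (adjusted p = 0.36), with 108 to 235 CPM in females and 83.3 to 229 in males, and the sexes overlapped for both genes. The other 7 genes lay between -0.060 (Drd2) and 0.012 (Drd1). In subventricular zone 0 of 9 passed, where 0.104% of 14464 did, and 0 had an unadjusted p under 0.05, with differences from 0.068 (Pdyn) to 0.33 (Adora2a). The age by sex term called 0 of the 9 and 0 genes in all in either region, a share of 0%, with 726 and 728 genes at an unadjusted p under 0.05 but none of the 9.

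Other genes of the same neurons were taken from lists. In caudate putamen, 1 of 6 further direct pathway genes fell with age, where 13.4% of all genes were called. It was Sfxn1, a mitochondrial serine transporter, at -0.0089 ± 0.0021 log2 per month (adjusted p = 0.0020). Sfxn1 was at a mean of 104 CPM in caudate putamen and 130 in subventricular zone, where its slope was 0.0031, and its slopes differed between both regions by -0.013 ± 0.0031 (adjusted p = 0.038). Chrm4, Isl1, Ebf1, Slc35d3 and Eya1 had slopes from -0.0055 to 0.0033 and did not pass, and the median of the 6 was -0.0039, against -0.00018 over all genes. Of the indirect pathway genes Gpr6, Gpr52, Sp9 and Six3, 0 of 4 passed in either region, and their slopes in caudate putamen lay between -0.0038 and 0.0038, with a median of -0.0024. Beside the 14-gene list, Sfxn1 passed in caudate putamen at -0.0086 ± 0.0020 (adjusted p = 0.0012) and the other direct and indirect genes did not.

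Of 13 genes of dopamine and cAMP signalling, whose median slope was -0.0035, 1 fell in caudate putamen, where 13.4% of all genes were called. It was Rgs7bp, a membrane anchor of Rgs proteins, at -0.010 ± 0.0033 (adjusted p = 0.025). Beside the 14-gene list Rgs7bp (-0.0083, adjusted p = 0.0019) and the kinase gene Cdk5 (-0.0034, adjusted p = 0.045) fell and the phosphodiesterase gene Pde7b rose (0.0054, adjusted p = 0.019), which makes 3 of 13 where 19.8% of all genes were called. In the 14-gene list itself 0 passed without the covariate, with a median slope of -0.0031. Beside its own mean, which includes each tested gene, 1 of the 14 rose and 1 fell, where 19.8% of all genes were called. The gene that rose was Meis2 (0.0031, adjusted p = 0.029). Of 8 tested receptors among Drd3, Drd4, Drd5, Adora1, Oprm1, Oprd1, Oprk1, Tacr1 and Tacr3, 0 passed. Of 7 activity-induced genes 2 passed, against the same 13.4%: Fosb rose (0.020 ± 0.0063, adjusted p = 0.020) and Egr1 fell (-0.016 ± 0.0053, adjusted p = 0.027). In subventricular zone 0 genes of any of these lists passed.

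In the other 13 regions, 112 of the 117 pairs of gene and region passed the filter on low counts, and 10 of them were called with age, 7 higher and 3 lower, where 10.6% of all pairs of gene and region were called. The calls fell on 6 genes in 9 regions. Drd2, Adora2a and Tac1 had no call. Ppp1r1b rose in medulla (0.018, adjusted p = 0.016, 10.3% of genes called there), pons (0.017, adjusted p = 0.0021, 4.69%) and posterior hippocampus (0.014, adjusted p = 0.031, 6.04%). In pons Ppp1r1b ran from 39.9 to 57.3 CPM at 3 months, with a median of 48.7 (n = 9), and the 3 males of 28 months had 54.0, 66.6 and 66.7. Penk rose in olfactory bulb (0.0082, adjusted p = 0.0097, 15.6%) and fell in visual cortex (-0.019, adjusted p = 0.026, 9.59%). In olfactory bulb Penk went from a median of 310 CPM at 3 months (264 to 348, n = 10) to 359 at 21 months (329 to 398, n = 10), groups that overlap only at their ends. The 3 males of 28 months had 318, 340 and 365 CPM there, a range that overlaps that of 3 months further.

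Pdyn had the steepest slope, in thalamus, where it fell at -0.13 log2 per month (adjusted p = 0.0046, 3.83% of genes called). Pdyn ran there from 1.08 to 29.5 CPM at 3 months and from 1.1 to 34.0 at 12 months, and the 3 males of 28 months had 0.517, 1.73 and 2.35. Low values occurred at every age, and no library after 12 months was above 24.8. Pdyn rose in visual cortex (0.0086, adjusted p = 0.049, 9.59%), Drd1 rose in anterior hippocampus (0.032, adjusted p = 0.033, 9.39%), Rgs9 rose in cerebellum (0.024, adjusted p = 0.048, 17%) and Pde10a fell in choroid plexus (-0.013, adjusted p = 0.0081, 20.2%). Drd1 and Rgs9 are scarce there, with means of 4.10 and 3.75 CPM. Leaving out the library that moved a slope most ended 4 of the 10 calls, that of Rgs9 in cerebellum (without mouse 33, adjusted p = 0.13), Ppp1r1b in posterior hippocampus (without mouse 59, 0.12), and Pdyn and Penk in visual cortex (without mouse 21, 0.096 and 0.074). In males alone 2 of the 10 passed, Ppp1r1b in medulla and Penk in visual cortex. No call was made in hypothalamus, motor cortex or entorhinal cortex, where 6.88%, 16.6% and 0.0964% of genes were called.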

How the data were processed

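Bulk tissue of 15 brain regions was sequenced from 59 C57BL/6JN mice as 847 libraries. Per the labels' protocols, RNA from homogenised tissue went through Smart-Seq2 and Nextera XT, without strand information, so antisense transcripts cannot be told apart. Trim Galore 0.3.7, STAR 2.5.3a, DESeq2 and GRCm38 are named per the submitters' processing notes, and the counting program and annotation are not given in the sources used here. The deposited values are whole read counts per gene symbol, as the authors left them, with 1 column for each library.

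Groups, sex and ages came from the labels, and the members and gene lists were chosen with earlier results of these data known. Each region was fitted with edgeR 4.0.16 in R 4.3.3 (TMM scaling, filterByExpr, quasi-likelihood test, age in months beside sex, 2-sided, Benjamini-Hochberg over all genes tested, threshold 0.05). The region comparison kept mice unblocked. CPM is the count divided by the library's total and multiplied by 1000000, and log2 CPM has a prior count of 2. SE and intervals (95%) are those of the fit. Gene positions on GRCm38.p6 and promoter sequences came from RefSeq, and strands and exon lengths from the GENCODE annotation. The fitting steps were tested on simulated data. Alternatives were other scaling (RLE), no filter, DESeq2 1.42.0, males alone, mice 16 to 56, ages 3 to 21 months, covariates for depth and cell content, the mouse as a block, and leaving out mice. Covariates in subsets, corpus callosum with the list, fits without some libraries and female balances were added after seeing the data. All 9 members are named. Genes of the lists are named where called with age in caudate putamen or subventricular zone, up to 4 for each list and region at a mean of at least 5 CPM, and the genes of the direct and indirect lists always. One gene of the lists is not reported here by name. The likeness rule took the 5 highest r over regions and the 3 highest with Drd1 and with Drd2. Mice are paired across caudate putamen and subventricular zone as the same animals. Of 54 same-mouse correlations of deviations from the age and sex group, 40 were over 0.1 (median 0.245, against -0.0072 for different mice).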

Additional observations from a re-analysis of the deposited data

Results flagged for a closer look

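In groups of 4 to 10 mice, a library stood farther from its neighbour than Dixon's 95% value allows in 14 of 99 groups of a gene, region and age in caudate putamen and subventricular zone. Chance alone gives about 1 in 20 such groups, and the genes of a library move together, so these groups are not independent.

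Pdyn, the dynorphin precursor, had single high libraries in caudate putamen. At 3 months mouse 53 had 231 CPM, with the next at 137, and at 12 months mouse 10 had 235, with the next at 165. At 15 months mouse 22 was lowest for 4 genes there, with Tac1 at 367 CPM (next 497), Adora2a at 360.3 (next 472), Ppp1r1b at 1763 (next 2239) and Rgs9 at 450.5 (next 609). At 18 months mouse 27 was lowest for Penk, at 2113 CPM (next 3193), and for Ppp1r1b, at 1672 (next 2344). In the same group mouse 19 was highest for Pde10a, at 1073 CPM (next 806).

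In subventricular zone Drd1 had high libraries at 3 months, where mouse 29 had 91.3 CPM (next 47.6), and at 15 months, where mouse 26 had 74.4 (next 44.9). At 18 months mouse 35 was highest for Adora2a, at 341 CPM (next 157), and for Penk, at 2440.2 (next 1308). At 26 months mouse 14 was lowest for Rgs9, at 149.6 CPM (next 202).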

How the results depend on the processing

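Of 421 alternative values, 296 of single genes kept their direction and their side of the threshold. Of the other single-gene values, 27 changed sign, 15 kept it but lost a call and 8 kept it but gained a call. The comparisons' own values are counts of genes and balance slopes, which have no such threshold and were judged by the size of their change. Of these, 56 were rated as unchanged or little changed, 17 as moved and 2 as reversed. The count of the 9 genes called with age in caudate putamen went from 0 to 1 in mice 16 to 56, at ages 3 to 21 months and beside the projection neuron list in males alone, and to 2 beside that list, beside it in mice 16 to 56, and beside the oligodendrocyte list. In the other 13 regions the 10 calls became 2 in males alone and 6 without the library that moved each slope most. The balance slope of caudate putamen (0.012) was 0.00084 for receptors alone and 0.019 for peptides alone. It was 0.018 ± 0.0054 in females and 0.0084 ± 0.0046 in males (SE). That of subventricular zone (0.0041) was -0.0038 for receptors, 0.012 for peptides, -0.00094 in males and 0.015 in females. That of corpus callosum (0.015) was 0.0053, 0.024, 0.0095 in males and 0.025 in females. Leaving out 1 mouse at a time gave 0.0104 to 0.0130, 0.0026 to 0.0054 and 0.0140 to 0.0160. The cause of these shifts was not tested.

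Signs of slopes that had not passed turned as follows in caudate putamen. In mice 16 to 56, at ages 3 to 21 months and beside the oligodendrocyte list, Drd1 was at 0.0019, 0.0034 and 0.0022, Drd2 at 0.0027, 0.0022 and 0.0032, and Ppp1r1b at 0.0028, 0.0019 and 0.0030. Beside the projection neuron list Drd2 was at 0.0011 and Ppp1r1b at 0.0015, Rgs9 was at -0.00025 with depth covariates and Pde10a at 0.00054 beside the oligodendrocyte list. Over fits without 1 mouse Ppp1r1b ran from -0.0030 to 0.00033 and Rgs9 from -0.0023 to 0.0018. The sex difference of Penk was 0.046 in 12-month mice alone. In subventricular zone, beside the projection neuron list, Drd1 was at 0.0025, Pdyn at 0.012, Tac1 at 0.010, Drd2 at 0.0059, Adora2a at 0.0083, Ppp1r1b at 0.0027 and Rgs9 at 0.0034. There Pdyn was also at 0.0070 in mice 16 to 56 and 0.0011 at ages 3 to 21 months and beside the oligodendrocyte list, and Tac1 at 0.0060 in mice 16 to 56. In corpus callosum beside the list, Tac1 was at 0.010 and Rgs9 at 0.0061.

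With the mouse as a replicate block, the levels of all 9 genes in caudate putamen stayed above those of subventricular zone, by 0.91 (Pdyn) to 2.39 (Adora2a) log2, and 0 of 9 slopes were called as different, where 46 genes were called in all, against 16 without the block, 25 without the filter and 1 in males. It changed no other call of the 9.

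Counts over all genes moved by more than 1.5 times in these alternatives, which change the samples, the tool or the filter. Slopes in caudate putamen gave 1848 genes, against 1032 in males, 828 in mice 16 to 56 and 870 at ages 3 to 21 months (beside the list 2729, and 1696 in mice 16 to 56); in subventricular zone 1142, against 391 in mice 16 to 56 and 358 at ages 3 to 21 months (beside the list 1402, and 719 in mice 16 to 56). In males alone the 6 contrasts of caudate putamen gave 3, 5, 36, 184, 160 and 751 genes, against 30, 79, 311, 602, 385 and 1298, and corpus callosum gave 1330 against 2565. Males alone also gave 1553 against 2338 genes in cerebellum, 745 against 2952 in choroid plexus, 2 against 14 in entorhinal cortex (42 without the filter), 774 against 1340 in anterior and 336 against 848 in posterior hippocampus, 256 against 1013 in hypothalamus, 1539 against 2342 in motor cortex, 1349 against 2235 in olfactory bulb and 203 against 546 in thalamus. In subventricular zone the contrasts at 12, 15, 18 and 21 months gave 209, 15, 85 and 289 genes, against 425, 25, 130 and 478 by DESeq2 and 9, 2, 13 and 150 in males, with 402 at 12 months without the filter. The 313 genes at 28 months there became 100 to 189 without 1 of the 3 oldest mice. Sex gave 72 genes in caudate putamen, against 9 at 12 months alone and 219 in mice 16 to 56, and 15 in subventricular zone, against 4 at 12 months. At 28 months in caudate putamen 1298 genes became 483 without mouse 59 and 721 without mouse 57. Libraries under 1000000 reads are few, and low genes such as Drd1 outside striatum rest on few reads.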

Other observations

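Marker genes of other cell types were tested with age in the same libraries, by edgeR's quasi-likelihood test beside sex. In caudate putamen, where 13.4% of all genes were called, 2 of 4 microglia, 1 of 4 neuroblast and 1 of 4 pan-neuronal genes passed, and 0 of the other marker lists. Of the microglia genes, Cx3cr1, a chemokine receptor, rose at 0.018 ± 0.0030 log2 per month (adjusted p = 1.53e-05) and Tmem119 at 0.013 ± 0.0034 (adjusted p = 0.0051). Sox11, a transcription factor of young neurons among the neuroblast genes, fell at -0.029 ± 0.0060 (adjusted p = 0.00045). The pan-neuronal gene Stmn2, which encodes a tubulin-binding protein of growing axons, fell at -0.022 ± 0.0058 (adjusted p = 0.0077). Beside the 14-gene projection neuron list, where 19.8% were called, the same 4 genes passed and so did 3 of 6 interneuron genes. Chat, which makes acetylcholine, rose (0.010, adjusted p = 0.0030), as did the nitric oxide synthase gene Nos1 (0.011, adjusted p = 0.00038), and Pvalb, a calcium buffer, fell (-0.045, adjusted p = 0.0022).

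In subventricular zone, where 7.77% of all genes were called, 4 of 4 microglia genes rose, Cx3cr1 at 0.023, Tmem119 at 0.021, Csf1r at 0.011 and P2ry12 at 0.011 log2 per month (adjusted p from 2.93e-05 for Cx3cr1 to 0.026 for P2ry12). Sox11 fell there at -0.038 (adjusted p = 1.05e-08), as 1 of 4 neuroblast genes. The glutamate transporter gene Slc17a7 fell at -0.068 (adjusted p = 0.037), as 1 of 4 cortical glutamatergic genes, and 0 of the other marker lists passed. Beside the 14-gene list, where 9.54% were called, these 6 genes passed again, and Stmn2 fell (-0.0094, adjusted p = 0.020). The part of these cells in the slopes of the projection neuron genes was not tested.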
